A study of Mus musculus with 12 samples.

Results

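The 29 genes described here make cholesterol or respond to SREBP, the transcription factor released when it runs low, and all were measured in motor neurons sorted from the embryonic mouse spinal cord. They were taken by symbol from a list of known sterol and lipid genes; no values entered the rule, but the set was proposed with earlier results of these data in view. All 29 were found among the 30740 gene entries of the count table, and all 29 passed the filter on low counts. The libraries came from ventral spinal cord of CB6F1/J embryos at embryonic stage E12.5 that carried Hb9:GFP, a reporter driven by the promoter of the motor neuron gene Mnx1 (Hb9). GFP-positive cells gave 5 libraries from controls and 5 from Arhgap35 knockout embryos, and GFP-negative cells gave 1 of either genotype. Arhgap35 encodes p190, a GTPase-activating protein. The knockout embryos lacked the gene in the whole body as far as the labels say, controls were littermates that the protocol gives as either wild type or p190+/-, and tissue of several embryos was combined before sorting. Nothing in the labels states that replicates were separate litters, and the p-values below therefore speak only for the spread of these libraries, which may be technical.

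Libraries held 23.7 to 33.8 M estimated counts, and the lowest count of any of the 29 genes in any library was 60. Levels are given as CPM (counts relative to TMM-scaled library sizes) or, where genes are compared with each other, as TPM (transcript abundance, corrected for length). In GFP-positive cells Arhgap35 ranged over 135 to 202 CPM in controls and 88.2 to 106 CPM in knockouts, so the groups did not overlap. A separate entry under its older symbol, Grlf1, ranged over 23.7 to 72.1 CPM in controls and 0 to 8.34 CPM in knockouts, so transcript remained mainly under the first entry. Mnx1 was at 229.6 to 315 CPM in GFP-positive and at 0.508 and 0.438 CPM in GFP-negative libraries. All 10 motor neuron markers were higher and all 11 progenitor markers lower in GFP-positive cells by edgeR's quasi-likelihood test at an adjusted p of 0.05, although the labels call both kinds of sample motor neurons. In bulk RNA, fewer cells of a type and less RNA per cell cannot be told apart.

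Cells make cholesterol from acetyl-CoA through mevalonate, the isoprenoid farnesyl diphosphate, squalene and lanosterol. SREBP proteins are held in the endoplasmic reticulum by SCAP and the INSIG proteins while sterol is plentiful. When sterol falls, SCAP carries SREBP to the Golgi, proteases release its DNA-binding part, and the genes of the pathway are transcribed, with NF-Y and Sp1 as frequent partners at their promoters. SREBP2, from Srebf2, acts mainly on sterol genes, and SREBP1, from Srebf1, mainly on fatty acid genes. Growing neurons of the embryo need sterol for new membrane, and loss of the last enzyme, DHCR7, causes Smith-Lemli-Opitz syndrome in people.

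The promoters of the pathway are shown for 5 genes that were nominally higher in the knockout (below). All 5 carry the short motifs CCAAT and GGGCGG, explained below. Hmgcs1 was the only gene of the 23 with a RefSeq promoter (GRCm38.p6) whose 250 bases before the start held the sterol response element core TCACNCCAC on either strand. The other four were chosen after their values were seen. Each stretch runs 5′ to 3′ on the gene's strand and ends where either RefSeq or GENCODE starts the transcript. Capitals mark matches, on either strand, to TCACNCCAC or its shorter form CACNCCAC, which lies within it, to the NF-Y box, which reads CCAAT, to the GC box, which reads GGGCGG, and to the E-box, which reads CACGTG.
Hmgcs1 (chr13:119690101-119690350, plus strand, 250 bases): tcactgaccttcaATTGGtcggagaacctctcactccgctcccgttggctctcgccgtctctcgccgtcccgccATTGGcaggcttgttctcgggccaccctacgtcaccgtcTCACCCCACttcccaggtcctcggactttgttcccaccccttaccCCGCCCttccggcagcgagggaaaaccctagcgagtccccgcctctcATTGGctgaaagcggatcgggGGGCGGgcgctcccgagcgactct
Mvd (chr8:122443423-122443672, minus strand, 250 bases): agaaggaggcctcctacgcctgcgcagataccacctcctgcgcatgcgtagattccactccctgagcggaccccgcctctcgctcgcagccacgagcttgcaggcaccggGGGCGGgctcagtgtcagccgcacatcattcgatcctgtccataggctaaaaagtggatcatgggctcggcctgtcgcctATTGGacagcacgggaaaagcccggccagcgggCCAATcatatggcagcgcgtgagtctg
Lss (chr10:76531355-76531587, plus strand, 233 bases): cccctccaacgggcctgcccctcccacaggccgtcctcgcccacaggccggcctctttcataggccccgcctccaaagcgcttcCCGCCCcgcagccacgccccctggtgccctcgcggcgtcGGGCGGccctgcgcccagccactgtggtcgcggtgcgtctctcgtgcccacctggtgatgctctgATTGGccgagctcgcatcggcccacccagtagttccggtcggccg
Hsd17b7 (chr1:169969242-169969455, minus strand, 214 bases): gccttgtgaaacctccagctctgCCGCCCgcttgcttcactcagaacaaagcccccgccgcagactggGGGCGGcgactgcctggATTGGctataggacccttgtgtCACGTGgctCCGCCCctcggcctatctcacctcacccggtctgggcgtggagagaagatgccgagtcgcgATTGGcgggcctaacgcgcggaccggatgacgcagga
Insig1 (chr5:28071162-28071362, plus strand, 201 bases): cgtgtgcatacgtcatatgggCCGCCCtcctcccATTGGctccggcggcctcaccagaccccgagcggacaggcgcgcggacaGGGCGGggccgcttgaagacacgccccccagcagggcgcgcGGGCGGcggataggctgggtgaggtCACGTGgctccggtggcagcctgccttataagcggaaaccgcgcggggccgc

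Hmgcs1 held TCACCCCAC 137 bases before its RefSeq start, 3 CCAAT boxes and 2 GC boxes. Hsd17b7 and Insig1 each held a CACGTG. The CACNCCAC match of Insig1, 9 bases before its RefSeq start, lies outside its printed stretch. Over the 23 genes, the 250 bases held CCAAT in 19 (82.6%, against 37.5% of 27025 genes), GGGCGG in 19 (82.6% against 35.4%), CACGTG in 5 (21.7% against 6.86%), CACNCCAC in 3 (13% against 6.05%) and TCACNCCAC in 1 (4.35% against 1.22%), counting any start of a gene. Those promoters were richer in G and C, with a median GC content of 61.6% against 52% for all genes at their first start. Among the 6019 genes within 5 percentage points of that 61.6%, CCAAT was present in 34.6% and GGGCGG in 59.6% of first starts, where the 23 genes had them in 18 and 16. In the same band CACGTG was present in 9%, CACNCCAC in 6.65% and TCACNCCAC in 1.13% of first starts, against 3, 3 and 1 of the 23 genes. The 4 without CCAAT were Acat2, Scap, Acaca and Elovl6. All 7 genes with a promoter and an unadjusted p under 0.05 in the knockout comparison held CCAAT and GGGCGG, as did 12 of the other 16 for each. A match is a string of letters in this window and not a measured binding site. Fdps, Fdft1, Sqle, Stard4, Scd1 and Scd2 had no entry.

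Per transcript length, an early enzyme and a desaturase led the set. Hmgcs1, which condenses acetoacetyl-CoA to HMG-CoA, was at 608 ± 51.8 TPM (SD, n = 10 GFP-positive libraries), and Scd2, the desaturase of the embryonic brain, at 499 ± 35.2 TPM. Fdps, which makes farnesyl diphosphate, followed at 347 ± 37.1 TPM. Acat2 (234 ± 36.3 TPM), Srebf2 (225 ± 11.4 TPM), Fasn (219 ± 12.9 TPM) and Sqle (219 ± 15.97 TPM) lay close together, with spreads that overlap. The lower end held Srebf1 at 24.9 ± 3.44 TPM, Ebp at 24.1 ± 2.48 TPM, Stard4 at 16.5 ± 2.21 TPM and Scd1 at 15.3 ± 3.94 TPM. Srebf2 thus lay well above Srebf1 in every library, at 213 to 251 TPM against 20.7 to 30.7 TPM. The entry named Msmo1 was at only 2.87 ± 0.648 TPM, but the tables also hold an entry under its older symbol, Sc4mol, at 81.7 ± 9.98 TPM, so the reads of this sterol methyl oxidase are split.

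**Figure D1:**
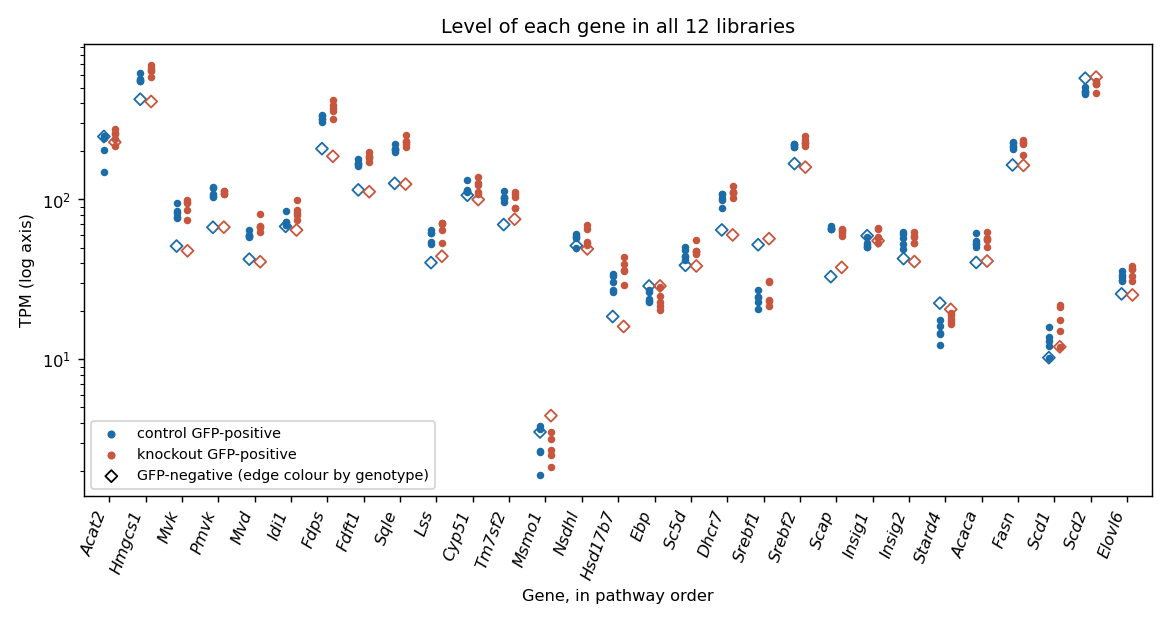
TPM on a log axis for the 29 genes in pathway order; each dot is a GFP-positive library (blue control, red knockout) and each diamond a GFP-negative library. Hmgcs1 and Scd2 sit at the top, the Msmo1 entry lies at the bottom, and Srebf1 is the gene whose diamonds stand farthest above its dots.

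The main comparison asks what loss of Arhgap35 does to motor neurons. In the knockout, 26 of the 29 genes had a log2 fold change above 0, as did 8545 of the 17487 genes tested. The median was 0.11 over the 29 genes against -0.0016 over all genes tested, but none of the 29 passed the threshold. By edgeR's quasi-likelihood test 0 of 29 were called at an adjusted p of 0.05, where 0.0343% of all genes were, and each of the 29 had an adjusted p of 0.9999. At an unadjusted p of 0.05, 13 were higher and 0 lower: Hmgcs1, Mvd, Idi1, Fdps, Fdft1, Sqle, Lss, Hsd17b7, Dhcr7, Insig1, Stard4, Scd1 and Scd2. The same thresholds took 1.09% of all genes as higher and 1.06% as lower. Blocking on the replicate number gave the same 13 genes and 0 lower, against 2.6% and 2.49% of all genes, and again 0 called (0.0286% of all genes), with adjusted p from 0.572 to 0.9996. That count moved with single libraries: it was 5 without knockout replicate 2 (1.07% of all genes), 6 without control replicate 2 (1.78%) and 7 without knockout replicate 3 (0.888%), and the median log2 fold change without knockout replicate 2 was 0.079. With the block it was 5 without pair 3 (2.42%), 4 without pair 4 (1.98%) and 10 without pair 2 (3.65%), where the median was 0.066. In the block fit of all 5 pairs, edgeR unadjusted p-values of the 13 genes ran from 0.00186 (Dhcr7) to 0.0458 (Idi1). Knockout values of single genes below come from the fit without the block, except where the block is named.

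From acetyl-CoA to farnesyl diphosphate, 4 of 7 genes were higher and 0 lower at an unadjusted p of 0.05. Over all genes 1.09% were higher and 1.06% lower. The median log2 fold change of the 7 genes was 0.19. Hmgcs1 (chr13:119690379-119708260, GRCm38 as for all positions) was at 841, 852, 892, 842 and 954 CPM in control replicates 1 to 5 and 886, 1081, 1013, 981 and 967 CPM in knockout replicates 1 to 5. Every knockout library except replicate 1 lay above all 5 controls, and each knockout was above the control of its own number. The log2 fold change was 0.17 ± 0.0536 (SE), with a 95% confidence interval of 0.05 to 0.29 and edgeR unadjusted p = 0.00794. Mvd (chr8:122433601-122443422), the decarboxylase that yields isopentenyl diphosphate, was at 44.3, 46.1, 46.8, 45.2 and 49.6 CPM in control replicates 1 to 5 and 47.96, 63.4, 51.5, 50.9 and 52.2 CPM in knockout replicates 1 to 5. Knockout replicate 2 stood apart from the other four, and replicate 1 alone fell within the control range. Its log2 fold change was 0.20 ± 0.0684 (SE), edgeR unadjusted p = 0.0137. Idi1 (chr13:8885501-8892451), the isomerase, was at 89.5, 88.2, 94.4, 86.9 and 101 CPM in control replicates 1 to 5 and 91.7, 124, 106, 106 and 99.97 CPM in knockout replicates 1 to 5. Knockout replicates 2, 3 and 4 were above all controls, and control 5 was above knockouts 1 and 5. The log2 fold change was 0.20 ± 0.0728 (SE), edgeR unadjusted p = 0.0178. Fdps (chr3:89093588-89101959) was at 172, 173, 189.7, 166 and 182 CPM in control replicates 1 to 5 and 172, 230.0, 214, 193 and 204 CPM in knockout replicates 1 to 5. Again replicate 1 gave the lowest knockout value, level with its control, and the other four exceeded every control. The log2 fold change came to 0.20 ± 0.0687 (SE), edgeR unadjusted p = 0.0135.

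The other 3 genes of this stretch did not reach an unadjusted p of 0.05. Mvk and Pmvk, the kinases that phosphorylate mevalonate in turn, had log2 fold changes of 0.09 ± 0.0800 (SE) and 0.00 ± 0.0435 (SE). Mvk was at 51.7 to 68.8 CPM and Pmvk at 53.3 to 59.6 CPM over the 10 GFP-positive libraries. Acat2, the thiolase that makes acetoacetyl-CoA, was at 234, 180.2, 241, 226 and 132 CPM in control replicates 1 to 5 and 236, 229, 255, 242 and 195 CPM in knockout replicates 1 to 5. Control replicates 5 and 2 were the lowest of these, and all 5 knockouts exceeded the control of their own number. The log2 fold change of Acat2 was 0.19 ± 0.157 (SE), edgeR unadjusted p = 0.253. With the replicate block it was 0.22 ± 0.0926 (SE), edgeR unadjusted p = 0.0632. Acat2 shares 43.7% of its 31-base words with Acat3, Fdps 27.9% with other genes (most with Gm43738, which overlaps it) and Idi1 27.1%, so their estimated counts are uncertain. The mean of Acat3 itself was 7.04 CPM over controls and 4.08 CPM over knockouts.

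**Figure D2:**
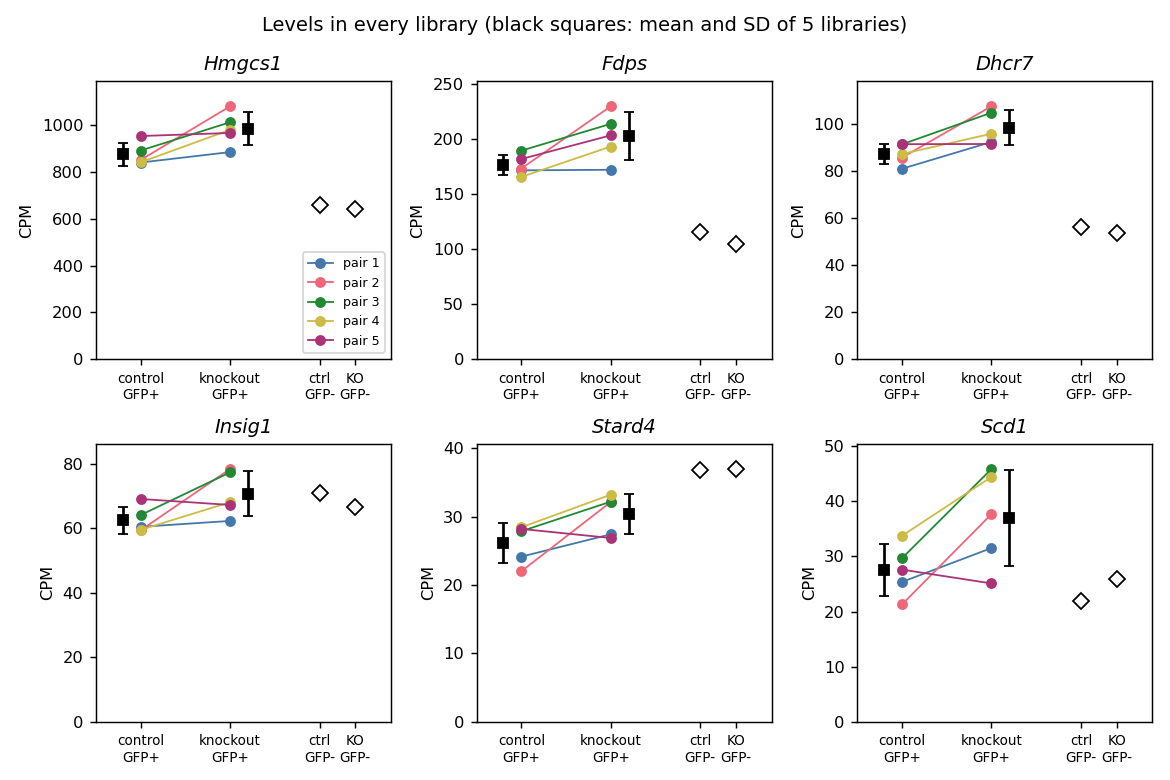
CPM (axis from 0) of 6 genes in every library: coloured lines join libraries of the same number, squares with bars give the mean and SD of 5 libraries, and diamonds are GFP-negative libraries. The line of pair 2 climbs most steeply in each panel, nearly matched by pair 3 for Scd1, and that of pair 5 is nearly flat or slopes down in all but Fdps.

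From squalene to cholesterol, 5 of 11 genes were higher and 0 lower at an unadjusted p of 0.05 (1.09% and 1.06% of all genes). The median log2 fold change of the 11 genes was 0.11. Fdft1 (chr14:63145150-63179578), squalene synthase, was at 216, 209, 221, 215 and 233 CPM in control replicates 1 to 5 and 221, 257, 239, 233 and 232 CPM in knockout replicates 1 to 5. Knockouts 2 and 3 exceeded all controls, and control 5 lay above the other three. Its log2 fold change was 0.11 ± 0.0436 (SE), edgeR unadjusted p = 0.0262. Exons of Ctsb on the opposite strand cover 18.3% of its exonic bases, which a kit without strand cannot separate, and Ctsb had a log2 fold change of -0.0040. Sqle (chr15:59315077-59331192), the epoxidase that takes the first oxygen step, was at 251, 241, 259, 246 and 273 CPM in control replicates 1 to 5 and 257, 309, 282, 275 and 270.5 CPM in knockout replicates 1 to 5. The order resembled that of Fdft1, with knockouts 2, 3 and 4 above all controls. The fold change was 0.13 ± 0.0501 (SE) on the log2 scale, edgeR unadjusted p = 0.0197.

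Lss (chr10:76531588-76557138), which folds the epoxide into lanosterol, was at 124, 126, 145, 139 and 149 CPM in control replicates 1 to 5 and 127, 169.6, 174, 158 and 149.9 CPM in knockout replicates 1 to 5. Knockout replicate 1 was below controls 3, 4 and 5, and the other knockouts were above every control, replicate 5 narrowly. The log2 fold change was 0.19 ± 0.0856 (SE), edgeR unadjusted p = 0.0498. Hsd17b7 (chr1:169949535-169969241), the ketosteroid reductase of the demethylation steps, was at 47.8, 50.4, 59.2, 49.4 and 57.9 CPM in control replicates 1 to 5 and 50.3, 70.8, 62.9, 61.6 and 58.4 CPM in knockout replicates 1 to 5. All 5 knockouts were above the control of their own number, while knockouts 1 and 5 stayed within the control range. Its log2 fold change was 0.20 ± 0.0897 (SE), edgeR unadjusted p = 0.0458. Dhcr7 (chr7:143823145-143848410), which reduces 7-dehydrocholesterol to cholesterol, was at 80.8, 85.5, 91.2, 87.04 and 91.2 CPM in control replicates 1 to 5 and 92.2, 107, 105, 95.7 and 91.3 CPM in knockout replicates 1 to 5. In CPM it was the only gene of the 29 whose 5 knockout libraries all lay above its 5 control libraries. Of all genes 0.223% did so, and 0.315% lay below. The gap between the lowest knockout and the highest control was narrow. In TPM, whose columns differ in their sums, the groups overlapped, at 88.8 to 108 TPM over controls and 102 to 122 TPM over knockouts. The log2 fold change was 0.17 ± 0.0531 (SE), with a 95% confidence interval of 0.06 to 0.29 and edgeR unadjusted p = 0.00698, the smallest of the set.

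The other 6 genes of the later steps had unadjusted p-values above 0.05. Cyp51, the lanosterol demethylase, had a log2 fold change of 0.12 ± 0.0606 (SE) and ranged over 167 to 219.8 CPM. Sc5d, the desaturase before Dhcr7, had 0.09 ± 0.0658 (SE) over 40.5 to 54.1 CPM, and Nsdhl, a decarboxylating dehydrogenase, 0.04 ± 0.0869 (SE) over 49.2 to 67.5 CPM. Tm7sf2, a sterol reductase, and Ebp, the sterol isomerase, had log2 fold changes of 0.01 ± 0.0577 (SE) and -0.01 ± 0.0891 (SE). The Msmo1 entry had -0.07 ± 0.193 (SE), and its sign turned when Sc4mol was added, which gave 0.12 ± 0.0780 (SE) with edgeR unadjusted p = 0.155; this sum was formed after the values were seen. Of these 6, Cyp51 and Sc5d were above the control in 4 of 5 pairs.

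Among the sensors and regulators, 1 of 5 genes, Insig1, was higher and 0 lower at an unadjusted p of 0.05 (1.09% and 1.06% of all genes). Insig1 (chr5:28071363-28078662), which retains SCAP in the endoplasmic reticulum and is itself an SREBP target, was at 60.5, 59.4, 64.1, 59.5 and 69.1 CPM in control replicates 1 to 5 and 62.3, 78.4, 77.4, 68.1 and 67.3 CPM in knockout replicates 1 to 5. Knockouts 2 and 3 exceeded all controls, and the other three lay within the control range. Its log2 fold change was 0.18 ± 0.0678 (SE), edgeR unadjusted p = 0.0228. Srebf2 (chr15:82147181-82205379) was at 446, 426, 441, 430.3 and 447 CPM in control replicates 1 to 5 and 430.4, 477, 502, 445 and 453 CPM in knockout replicates 1 to 5. Knockouts 2, 3 and 5 were above all controls, knockout 1 was among the lowest, and the log2 fold change was 0.07 ± 0.0413 (SE), edgeR unadjusted p = 0.0957. Srebf1 (chr11:60199089-60222581) was at 27.9, 24.8, 27.2, 26.6 and 26.6 CPM in control replicates 1 to 5 and 27.00, 32.03, 28.7, 22.8 and 24.1 CPM in knockout replicates 1 to 5. Both the highest and the lowest value belonged to knockouts, and the log2 fold change was 0.02 ± 0.0822 (SE), edgeR unadjusted p = 0.855. Scap (chr9:110333288-110384950) was at 99.5, 113, 107, 103 and 112 CPM in control replicates 1 to 5 and 101, 104, 105, 103 and 113 CPM in knockout replicates 1 to 5. The ranges nearly coincided, with a log2 fold change of -0.02 ± 0.0438 (SE) and a 95% confidence interval of -0.11 to 0.08. Insig2 (chr1:121304353-121332589), the second INSIG gene, was at 37.9, 35.9, 41.4, 35.4 and 37.3 CPM in control replicates 1 to 5 and 37.6, 38.1, 38.8, 38.9 and 37.5 CPM in knockout replicates 1 to 5. Knockouts lay inside the control range, and the log2 fold change was 0.02 ± 0.0459 (SE) with a 95% confidence interval of -0.08 to 0.12.

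Stard4 (chr18:33199355-33213862), a sterol carrier of the cytosol, was at 24.1, 22.01, 27.9, 28.4 and 28.2 CPM in control replicates 1 to 5 and 27.4, 32.2, 32.2, 33.2 and 26.9 CPM in knockout replicates 1 to 5. Knockouts 2, 3 and 4 exceeded all controls, and knockouts 1 and 5 lay within their range. The log2 fold change was 0.22 ± 0.0861 (SE), edgeR unadjusted p = 0.0266. Of the 5 fatty acid genes, 2 were higher and 0 lower at an unadjusted p of 0.05 (1.09% and 1.06% of all genes). The 2 are stearoyl-CoA desaturases, which put the first double bond into fatty acids. Scd1 (chr19:44394455-44407879) was at 25.4, 21.3, 29.7, 33.8 and 27.6 CPM in control replicates 1 to 5 and 31.5, 37.7, 45.9, 44.4 and 25.1 CPM in knockout replicates 1 to 5. Relative to its level it varied more than Scd2, with knockout 5 below 4 of the 5 controls and knockouts 2, 3 and 4 above all. Its log2 fold change of 0.42 ± 0.176 (SE) was the largest of the 29, with a 95% confidence interval of 0.03 to 0.82 and edgeR unadjusted p = 0.0376. Scd2 (chr19:44293674-44306864), over an order of magnitude more abundant, was at 1198, 1081, 1139, 1141 and 1130.0 CPM in control replicates 1 to 5 and 1238, 1329, 1273, 1248 and 1097 CPM in knockout replicates 1 to 5. All knockouts but replicate 5 were above every control, and the log2 fold change was 0.12 ± 0.0473 (SE), edgeR unadjusted p = 0.0253. Scd1 and Scd2 share 8.18% and 6.81% of their 31-base words with other genes, mostly Scd3. Acaca, which makes malonyl-CoA, Fasn, fatty acid synthase, and Elovl6, the elongase, had log2 fold changes of 0.06 ± 0.0531 (SE), 0.04 ± 0.0756 (SE) and 0.09 ± 0.0585 (SE), none at an unadjusted p under 0.05.

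By pair of libraries with the same number, the 29 genes had median knockout minus control differences of 0.02, 0.30, 0.16, 0.13 and -0.01 log2 CPM in pairs 1 to 5. In the same order, 17, 27, 25, 27 and 12 of 29 genes were higher in the knockout, against 48.7%, 50.0%, 49.7%, 50.0% and 49.4% of all genes. Pairs 2, 3 and 4 were therefore high across the set, and pairs 1 and 5 were near the medians of all genes, which lay between -0.0046 and 0.0002. Scd1 had the largest difference in pair 2, 0.82, and Acat2 the largest in pair 5, 0.57. Above control in all 5 pairs by CPM were 7 of 29 genes, Acat2, Dhcr7, Fdps, Hmgcs1, Hsd17b7, Lss and Mvd (3.11% of all genes). By CPM 0 were below in all 5 (3.63% of all genes). In TPM Dhcr7 was lower in the knockout of pair 5, at 102 TPM against 108 TPM in the control. Lss was slightly lower in the knockout of pairs 1 and 5, at 53.2 against 54.0 TPM and 64.205 against 64.221 TPM. The deposited TPM columns differ in their sums, so gaps as small as those of Lss give no clear direction. By role, pair 5 had 4 of 7 early genes higher but 3 of 11 late genes and 2 of 5 fatty acid genes.

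**Figure D3:**
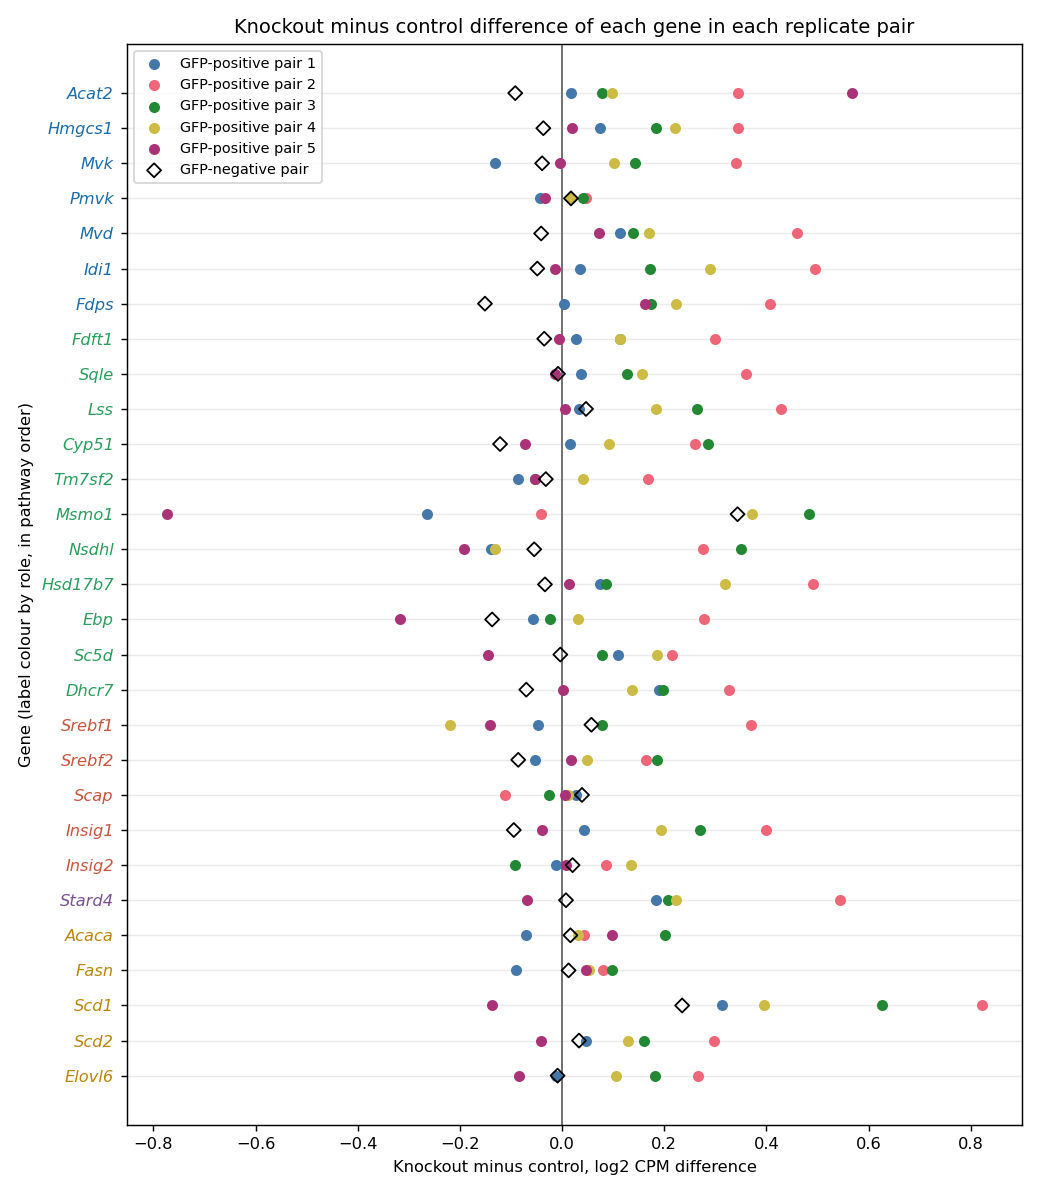
Knockout minus control difference in log2 CPM of each gene (rows, in pathway order, label colour by role) for the 5 GFP-positive pairs (dots) and the GFP-negative pair (open diamonds). Dots of pairs 2, 3 and 4 lie mostly to the right of 0, and those of pair 5 lie on both sides, with 12 of 29 to the right.

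Other gene lists were also set side by side in each pair, and 0 of their genes were called after adjustment. Motor neuron markers had pair medians of -0.04, 0.12, 0.00, 0.04 and 0.00, with 0 of 10 at an unadjusted p under 0.05. Medians of microglia and Schwann cell markers took both signs. Of those markers 0 of 3 and 0 of 6 passed, or 0 and 1 lower with the block. The 28 glycolysis and hypoxia genes had pair medians of -0.01, 0.35, 0.04, 0.10 and 0.03. Their median log2 fold change was 0.106, close to the 0.11 of the 29 genes. At an unadjusted p of 0.05, 3 of them were higher and 0 lower, against 1.09% and 1.06% of all genes. The 3 were Pgk1, 0.14 (unadjusted p = 0.0259), Bnip3, 0.21 (unadjusted p = 0.0299), and P4ha1, 0.21 (unadjusted p = 0.0493), all as log2 fold changes by edgeR. With the replicate block 7 of 28 were higher and 0 lower, against 2.6% and 2.49% of all genes. Endothelial markers had positive medians in all 5 pairs, at 0.10, 1.04, 1.03, 0.23 and 0.42 log2 CPM. Their sum was 3.01 to 7.32 CPM over controls and 3.89 to 17.8 CPM over knockouts, and 1 of 7 tested markers was higher at an unadjusted p of 0.05, or 4 of 7 with the block. Ventral interneuron markers had negative medians in all 5 pairs, at -0.49, -0.53, -0.12, -0.37 and -0.04, with 0 of 10 at that p, or 4 of 10 lower with the block. Erythroid markers, with pair medians of -0.68, 1.31, 0.58, 0.05 and 0.81, summed to 5.65 to 20.3 CPM over controls and 4.66 to 51.1 CPM over knockouts. Mesenchymal markers, with pair medians of 0.07, 0.36, 0.55, -0.12 and -0.13, summed to 18.99 to 27.4 and 20.2 to 40.1 CPM. Of these, 0 of 6 and 0 of 7 had an unadjusted p under 0.05, or 0 and 1 higher with the block. Progenitor and dorsal interneuron markers had their highest medians in pair 3, at 0.61 and 0.82, and 0 of 11 and 0 of 9 passed, or 0 and 1 lower with the block. Knockout replicate 2 was the highest GFP-positive library for the endothelial, erythroid and mesenchymal sums. No marker of those lists was at 0 in all GFP-positive libraries. The part of these cells and genes in the result was not tested.

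**Figure D4:**
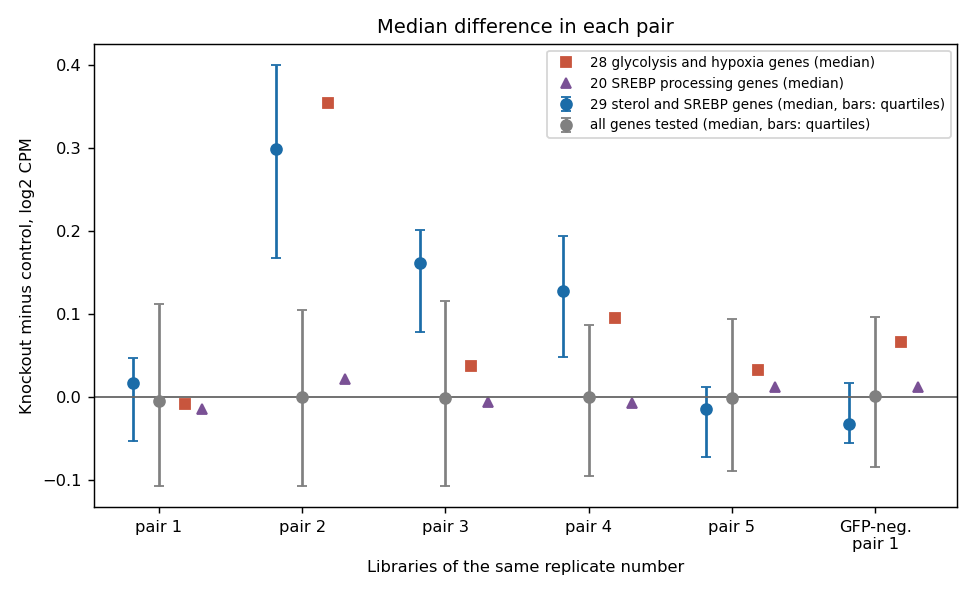
Median knockout minus control difference in log2 CPM for each pair, with quartile bars for the 29 genes (blue) and for all genes tested (grey), and medians of glycolysis and hypoxia genes (squares) and SREBP processing genes (triangles). Blue medians are 0.30, 0.16 and 0.13 in pairs 2, 3 and 4; the square of pair 2 is at 0.35.

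For the rest of the sterol machinery, the counts at an unadjusted p of 0.05 in the knockout stand against 1.09% higher and 1.06% lower among all genes. Of 20 genes that process or degrade SREBP and its partners, 0 had an unadjusted p under 0.05 in either direction, with a median log2 fold change of -0.0058; the smallest p-values belonged to Sec24d, 0.26 (unadjusted p = 0.106), Mbtps2, the site-2 protease, 0.06 (unadjusted p = 0.13), and Syvn1, -0.05 (unadjusted p = 0.277). Of 24 further fatty acid and SREBP target genes, 1 was higher and 0 lower: Fads2, the delta-6 desaturase, 0.11 (unadjusted p = 0.0148), above control in 5 of 5 pairs. Acsl4 and Acsl3, acyl-CoA ligases, followed at 0.13 (unadjusted p = 0.0606) and 0.09 (unadjusted p = 0.106). Of 16 genes on other branches from mevalonate, 0 passed, with Fntb, the farnesyltransferase subunit, at 0.07 (unadjusted p = 0.0767), Rabggta at -0.07 (unadjusted p = 0.16) and Pdss1 at -0.12 (unadjusted p = 0.177). Of 12 tested efflux, storage and LXR genes, 0 passed, with Abcg4, a sterol exporter, at -0.10 (unadjusted p = 0.0599), Nr1h2 at -0.07 (unadjusted p = 0.241) and Rxrb at -0.04 (unadjusted p = 0.294). Of 17 tested trafficking and lipoprotein uptake genes, 0 passed, led by Gramd1a at -0.05 (unadjusted p = 0.194), Scarb1 at 0.09 (unadjusted p = 0.247) and Lrp1 at 0.08 (unadjusted p = 0.322). The values are log2 fold changes from edgeR, and 0 of these genes, glycolysis included, were called after adjustment. With the replicate block 4 of the 24 fatty acid and SREBP targets and 1 of the 20 processing genes were higher and 1 of the 12 efflux genes was lower, against 2.6% and 2.49% of all genes.

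The second comparison sets motor neurons against the GFP-negative cells of the same cord. Sterol synthesis genes were mostly higher in GFP-positive cells, and Srebf1 was the gene of the 29 that differed most, in the opposite direction. By edgeR at an adjusted p of 0.05, 18 of 29 rose (30.1% of the 19763 genes tested did), 4 fell (31.8% did) and 7 were not called, with a median log2 fold change of 0.46 against 0.02 over all genes. Each genotype has 1 GFP-negative library, whose spread is taken from the other groups, and progenitor markers summed to 413 to 557 CPM in GFP-positive against 2147 and 2412 CPM in GFP-negative libraries; the part of cell makeup was not tested. With the replicate block, which sets the GFP-negative libraries against replicate 1, the median was 0.29, and 18 rose and 3 fell.

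Of the 7 early genes, 5 rose and 0 fell in GFP-positive cells (30.1% and 31.8% of all genes did). Fdps averaged 177 ± 9.37 CPM over controls and 203 ± 21.7 CPM over knockouts (SD, n = 5 each), while the GFP-negative libraries (control first, here and below) held 116 and 104 CPM, and the log2 fold change was 0.77 ± 0.102 (SE; edgeR adjusted p = 2.22e-05). Mvk was at 35.97 and 35.00 CPM and Pmvk at 34.5 and 34.9 CPM in GFP-negative cells, below every GFP-positive library, and their log2 fold changes were 0.76 ± 0.101 and 0.70 ± 0.0530. Mvd and Hmgcs1 rose by 0.60 ± 0.0902 and 0.51 ± 0.0710, with GFP-negative levels of 33.1 and 32.2 CPM and 659 and 642 CPM. Idi1 and Acat2 were not called, at 0.21 ± 0.0942 (edgeR adjusted p = 0.0729) and -0.06 ± 0.189 (adjusted p = 0.79), although Idi1 was called higher without knockout replicate 1 (adjusted p = 0.0379) or 2 (adjusted p = 0.0308).

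Of the 11 later genes, 7 rose, 1 fell and 3 were not called (30.1% of all genes rose and 31.8% fell). Hsd17b7 had the largest rise of the 29, from 29.7 and 29.01 CPM in GFP-negative cells to 52.9 ± 5.22 CPM over controls and 60.8 ± 7.43 CPM over knockouts (SD, n = 5 each), with a fold change on the log2 scale of 0.95 ± 0.119 (edgeR adjusted p = 1.44e-05). Sqle, 0.76 ± 0.0655, and Dhcr7, 0.75 ± 0.0751, were nearly as far apart. Fdft1, Tm7sf2, Lss and Sc5d rose by 0.61 ± 0.0573, 0.52 ± 0.0704, 0.50 ± 0.106 and 0.26 ± 0.0790, the last not called in control libraries alone (adjusted p = 0.141). Ctsb, whose exons overlap those of Fdft1, also rose, by 0.33 (edgeR adjusted p = 4.72e-05). The part of this overlap in the rise of Fdft1 was not tested. With the replicate block the rise of Lss was 0.29. Ebp fell by 0.34 on the log2 scale (edgeR adjusted p = 0.00996), a call lost with the replicate block (adjusted p = 0.0915) and in knockout libraries alone (adjusted p = 0.213). Cyp51, Nsdhl and Msmo1 were not called, at 0.15 ± 0.0796, 0.17 ± 0.104 and -0.50 ± 0.223. Msmo1 was called lower without control replicate 1 (adjusted p = 0.0344) or 5 (adjusted p = 0.0447), with library size as the only scaling (adjusted p = 0.0482) and with limma-voom (adjusted p = 0.0457). With Sc4mol added it fell, with -0.27 ± 0.0936 (edgeR adjusted p = 0.0218), a call lost with the replicate block (adjusted p = 0.163).

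The 2 SREBP genes went opposite ways. Srebf1 was at 26.6 ± 1.16 CPM over controls and 26.9 ± 3.67 CPM over knockouts (SD, n = 5 each), against 61.9 and 64.4 CPM in the GFP-negative libraries, and no GFP-positive library came near those. Its log2 fold change was -1.24 ± 0.0871 (edgeR adjusted p = 3.78e-08), the largest in size of the 29. Srebf2 was at 438 ± 9.52 CPM over controls and 461 ± 28.3 CPM over knockouts (SD, n = 5 each) against 337 and 318 CPM, and rose by 0.46 ± 0.0547 on the log2 scale (edgeR adjusted p = 6.14e-06). Scap rose by 0.82 ± 0.0548, from 59.4 and 61.02 CPM in GFP-negative libraries, and Insig2 by 0.57 ± 0.0567, from 25.3 and 25.7 CPM. Insig1 was not called, at -0.05 ± 0.0875 with a 95% confidence interval of -0.24 to 0.14 (edgeR adjusted p = 0.623). Stard4 fell, by 0.39 on the log2 scale (edgeR adjusted p = 0.0042), with 36.8 and 36.98 CPM in GFP-negative libraries above every GFP-positive one. Fasn, Elovl6 and Acaca rose by 0.46 ± 0.0910, 0.38 ± 0.0725 and 0.29 ± 0.0635, Scd2 fell by 0.25 (edgeR adjusted p = 0.00158) and Scd1 was not called, at 0.42 ± 0.214, except without knockout replicate 5 (adjusted p = 0.0305). With the replicate block the rises of Fasn and Acaca were 0.23 and 0.18. In knockout libraries alone Stard4 and Scd2 lost their calls (adjusted p = 0.0944 and 0.0931), with log2 fold changes of -0.28 and -0.20.

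**Figure D5:**
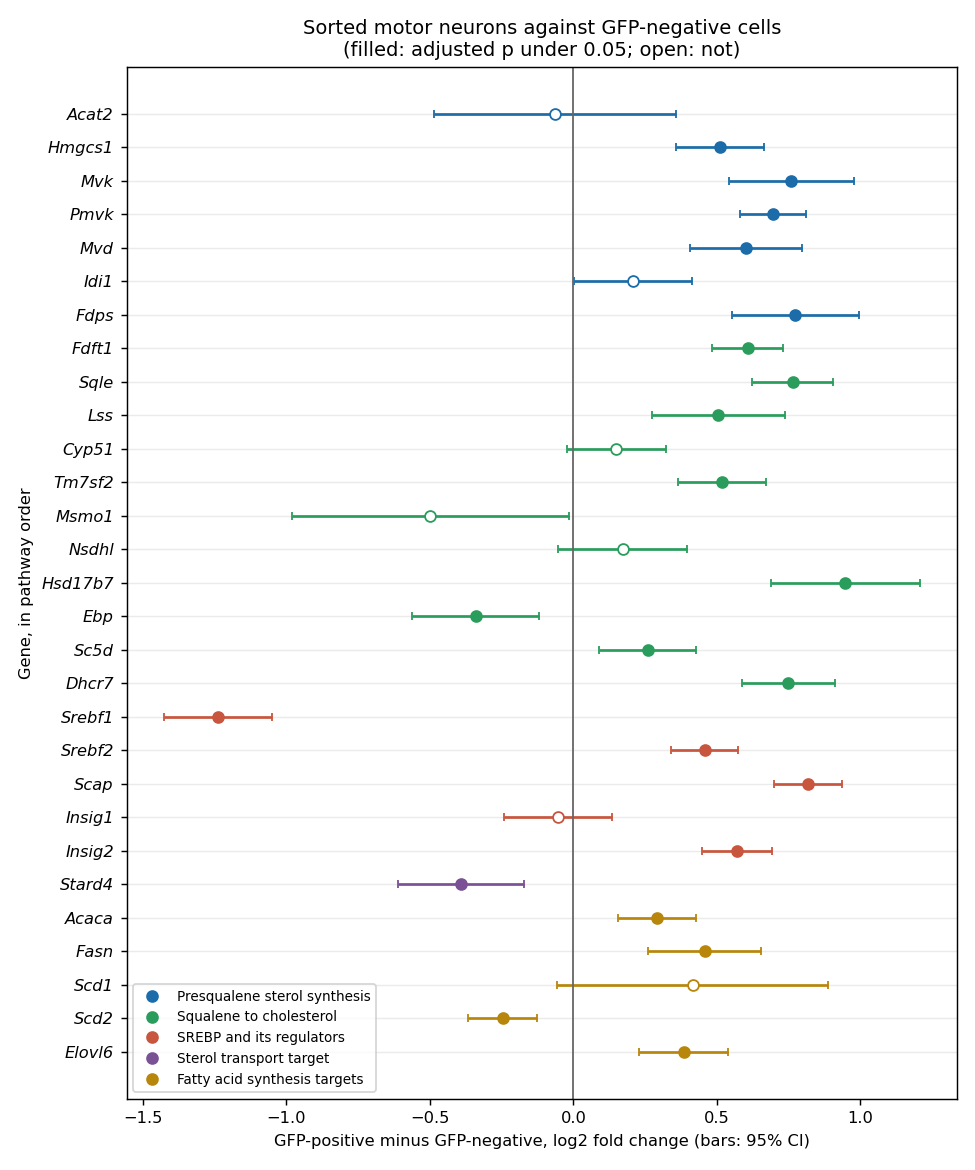
Log2 fold change of GFP-positive over GFP-negative cells for the 29 genes, with 95% confidence intervals from edgeR, coloured by role; filled circles have an adjusted p under 0.05. Of the 18 filled circles to the right of 0, 5 are early and 7 late sterol genes, 3 regulators and 3 fatty acid genes. Srebf1 lies alone at -1.24.

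Set against the GFP-negative library of its own genotype, each GFP-positive library had a median difference over the 29 genes between 0.28 and 0.59 log2 CPM. Both replicate 1 libraries were the lowest, at 0.29 (control) and 0.28 (knockout), and they also had the highest mean level of ventral interneuron markers, 2.98 and 2.53 log2 CPM against 0.07 to 1.72 in the other 8. The same held for progenitor markers, 3.61 and 3.41 against 1.84 to 3.20, and dorsal interneuron markers, 2.10 and 1.73 against -0.42 to 1.12. The part of those cells in the lower median was not tested. Of the other pathway genes, 13 of 24 fatty acid and SREBP targets rose and 4 fell (30.1% and 31.8% of all genes did), led by Me1, malic enzyme, at 1.59, Acsl1 at 1.31 and Slc25a1, the citrate carrier, at 1.21. Of the 20 SREBP processing genes 7 rose and 8 fell, near those shares, among them the site-1 protease Mbtps1 at -0.62 and the site-2 protease Mbtps2 at 0.33. Of 13 efflux, storage and LXR genes, 4 rose and 5 fell, also near them, with Abca1 at -1.70 and Abcg1 at 0.93. These 7 named genes were chosen after their values were seen. Of the 28 glycolysis and hypoxia genes 15 rose and 7 fell (30.1% and 31.8% of all genes did). Their median log2 fold change was 0.45, close to the 0.46 of the 29 genes. On other branches from mevalonate 9 of 16 genes rose and 3 fell, with a median of 0.23. Among 18 trafficking and lipoprotein uptake genes 7 rose and 5 fell, with a median of 0.0011.

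The knockout effect in GFP-negative cells rests on 1 pair of libraries. In this pair 11 of 29 genes were higher in the knockout, against 50.7% of all genes. The median difference was -0.03 log2 CPM over the 29 genes and 0.0018 over all genes. The difference between the effects in GFP-negative and GFP-positive cells was tested in a fit of 4 group means, and 0 of 29 genes were called (0.0253% of all genes). Its median was -0.14 over the 29 genes and 0.0061 over all genes. Of the 29 genes 4 were above 0, as were 10185 of 19763 genes. Fdps had the smallest p, with -0.35 (95% confidence interval -0.72 to 0.02, edgeR unadjusted p = 0.0612), and for Dhcr7 the difference was -0.24 (95% confidence interval -0.53 to 0.05). Both intervals include 0 and also a difference as large as the knockout effect of that gene in GFP-positive cells.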

How the data were processed

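The 29 genes and the other lists were chosen with earlier results of these data known. Deposited were 2 tables by gene symbol, estimated counts, unscaled across libraries, and TPM. The submitters' processing notes name kallisto, without giving a version, and mm10; the step from transcripts to symbols was not stated there. Per the labels' protocols, libraries were polyA-selected, single-end and from a TruSeq kit that loses strand. Here estimated counts were rounded, low counts were removed with filterByExpr, and TMM factors set the scale. The robust quasi-likelihood F-test of edgeR 4.0.16 (limma 3.58.1, R 4.3.3) was used, with Benjamini-Hochberg adjustment over every gene in the fit and 0.05 as the threshold. Log2 CPM used a prior count of 2. The knockout comparison used the 10 GFP-positive libraries; the comparison by sort used all 12, adjusting for genotype. The deposited TPM columns differ in their sums and served for levels and, as log2(TPM + 1) or log2(TPM + 0.1), as an alternative.

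Replicate numbers paired the libraries: residuals of the same number correlated at 0.381, 0.251, 0.179, 0.277 and 0.309, and those of other numbers at 0.103 or less, so fits with the number as a block were added. The labels do not say what a number shares. Replicates within a group differed beyond sampling noise, with chi-square values over their degrees of freedom between 8.01 and 24.6. Named were every gene of the set, with values in every library for those with an unadjusted p under 0.05 and for Srebf1, Srebf2, Scap, Insig1 and Insig2 (and Acat2, added after its values were seen), and up to 3 genes with the smallest p from each other list. Positions and shared 31-base words came from GENCODE M21 on GRCm38, promoters from RefSeq. Alternatives were other scaling and filters, limma-voom, DESeq2 1.42.0, TPM with limma, fits of all 12 libraries or of either genotype, robust fitting off, and fits lacking a library or pair. The tests were checked on simulated data.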

Additional observations from a re-analysis of the deposited data

Results flagged for a closer look

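In 58 groups of 5 libraries (29 genes in control and knockout GFP-positive cells), 2 held a library far from the other four; chance alone flags about 1 in 20 groups. Mvd was at 63.4 CPM in knockout replicate 2, where the other knockout libraries were at 47.96 to 52.2 CPM. Sc5d was at 54.1 CPM in knockout replicate 4, where the others were at 44.7 to 47.1 CPM.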

How the results depend on the processing

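No gene of the 29 was called in the knockout comparison or in the interaction under any alternative run. The count of genes higher in the knockout at an unadjusted p of 0.05, added after seeing the data, was 13 and ran from 4 to 17 when libraries or pairs were left out; with the replicate block it was 5 without pair 3 and 4 without pair 4. The median log2 fold change of GFP-positive over GFP-negative cells was 0.29 with the replicate block, which changed no knockout call. Signs of small knockout log2 fold changes turned: Tm7sf2 was -0.0554 on log2(TPM + 1), with or without the filter, and -0.0559 on log2(TPM + 0.1), Srebf1 was -0.0081 with limma-voom, and Msmo1 was 0.12 with Sc4mol added. Leaving out libraries or pairs gave -0.0127 to 0.0279 for Pmvk, -0.0368 to 0.0416 for Tm7sf2, -0.186 to 0.132 for Msmo1, -0.0464 to 0.0883 for Nsdhl, -0.091 to 0.0581 for Ebp, -0.0824 to 0.0702 for Srebf1, -0.0454 to 0.00537 for Scap and -0.00204 to 0.0598 for Insig2. In the comparison by sort, Acat2 was 0.0557 with the replicate block, 0.0813 in knockout libraries alone and -0.091 to 0.00102 with libraries left out, and Insig1 was 0.0862 in knockout libraries alone. The cause of these turns was not tested. Each GFP-negative group has 1 library, and shared sequence limits Acat2, Fdps, Idi1, Fdft1 and Acaca.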
